A study of Homo sapiens with 6 samples.

Results

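The genes described here are the amino acid transporter families SLC1, SLC6, SLC7, SLC36, SLC38 and SLC43, apart from SLC7A11, which imports cystine in exchange for glutamate as system xc-. Members were chosen by symbol, as rows named SLC1A, SLC6A, SLC7A, SLC36A, SLC38A or SLC43A with a number, and had to be nonzero in at least 3 of 6 libraries. Of 17187 genes in the table, 41 had such a symbol and 37 were members: 5 of SLC1, 10 of SLC6, 8 of SLC7, 3 of SLC36, 8 of SLC38 and 3 of SLC43. The rule used no difference between groups. By symbol it also took in SLC6A10P, a pseudogene related to SLC6A8, and SLC7A6OS, a gene on the strand opposite SLC7A6 that encodes no transporter.

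The 6 libraries came from HT-1080, an established human fibrosarcoma line of wild-type genotype grown in EMEM. In the control group 3 libraries came from cells given PBS, and in the other 3 from cells given recombinant interferon gamma (IFNg), a cytokine of activated T and natural killer cells, at 10 ng/ml for 8 h. The title places the series in work on how CD8+ T cells bear on ferroptosis of tumour cells, and the comparison asks which transcripts differ after IFNg. Nothing in the labels ties the libraries of a group to separate cultures, so p-values measure the spread between these libraries, which may be technical. HT-1080 is 1 cell line, and the libraries measure transcripts, not protein or uptake.

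Cells cannot make all amino acids and must also move those they make, so families of membrane carriers with different coupling and substrates share this work. SLC1 carriers are driven by sodium and take up acidic amino acids or exchange small neutral ones. SLC7 carriers divide into a cationic branch and light chains that reach the membrane only when joined to a heavy chain such as SLC3A2. SLC38 carriers couple small neutral amino acids such as glutamine and alanine to sodium, and some SLC36 carriers use protons. SLC43 carriers let large neutral amino acids through, and SLC6 carriers range from glycine and proline to taurine, creatine, GABA and monoamines. Several carrier genes are known targets of ATF4, a factor whose translation rises when amino acids run short.

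Libraries held 59556948 (IFNg 3) to 83501954 (control 2) reads assigned to genes, and 1 read was worth 0.835 to 1.16 in the scaled value called normalised read count below. Summed markers of mesenchymal cells lay between 574340 and 676850 in control and between 529280 and 645190 in IFNg. VIM was the highest of them (380457 ± 44482 and 369946 ± 48203). S100A4 (63.6 ± 17.5 and 35.0 ± 13.6) and TWIST1 (404 ± 64.9 and 391 ± 99.4) were low. Of 4 epithelial markers only KRT5 was in the table, at 0 in all libraries but IFNg 3 (18.5). The 4 of 7 blood cell markers in the table summed to 11.7 to 50.1 in control and 30.1 to 59.5 in IFNg, and the 3 of endothelium to 28.4 to 35.4 and 23.8 to 45.5. Of these, CD3E and CD14 were at 0 in all controls and CDH5 in all IFNg libraries. The part of these low signals in any result was not tested. TAP1, a peptide transporter gene that IFNg is known to induce, was 1996 ± 381 in control and 45966 ± 461 in IFNg. Libraries numbered 3 stood apart in both groups: chi-square per degree of freedom between recovered reads was 40.8 for control 1 against 2 but 93.0 and 115 for control 3 against these, and 15.8 for IFNg 1 against 2 but 57.6 and 61.9 for IFNg 3. Values without both are therefore given where a call changes.

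After IFNg, 4 of the 37 members fell and 1 rose. SLC1A4 and SLC1A5, the sodium-dependent exchangers of small neutral amino acids, fell by 46.2% and 24.1% of their control means. SLC7A5, the large neutral light chain, fell by 34.4%, and SLC6A9, a glycine transporter, fell by 43.5%. SLC1A3, a glutamate and aspartate transporter, rose by 60.7%. In such bulk RNA, fewer cells carrying a transcript and less of it per cell cannot be told apart. The other 32 members did not pass, among them every measured SLC36, SLC38 and SLC43 gene in the limma fit.

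Among all 15546 genes tested with limma, 1.05% were lower and 3.27% higher at an adjusted p of 0.05, so the members' shares were 10.8% lower and 2.70% higher. In edgeR, which tested 32 members, the counts were again 4 and 1, against 1.22% lower and 3.47% higher of all 14187 genes in that fit. DESeq2 called 5 lower and 1 higher, against 2.09% lower and 4.44% higher of the 15855 genes with an adjusted p there. At an unadjusted p under 0.05 in limma there were 8 of 37 members, against 15.3% of all genes in either direction. All 3 IFNg libraries lay below all 3 controls in 7 members (18.9%, against 9.28% of all genes) and above them in 3 (8.11%, against 10.7%). SLC6A13 is among the 7 and among the 8 at an unadjusted p under 0.05. It was 0 in all IFNg libraries and met the rule and the filter only through the controls. Its place among the 7 was thus set by selection. The median log2 difference of IFNg minus control was -0.03 over the members and -0.01 over all genes. In limma the number of members lower was 2 without control 2, without IFNg 1 or without IFNg 2, and no member was called higher without any 1 library other than control 3. Without both libraries numbered 3 the calls were 5 lower and 2 higher, where 3.85% and 5.67% of all genes were called, with SLC38A1 and SLC6A8 added to the 5 named above.

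**Figure D1:**
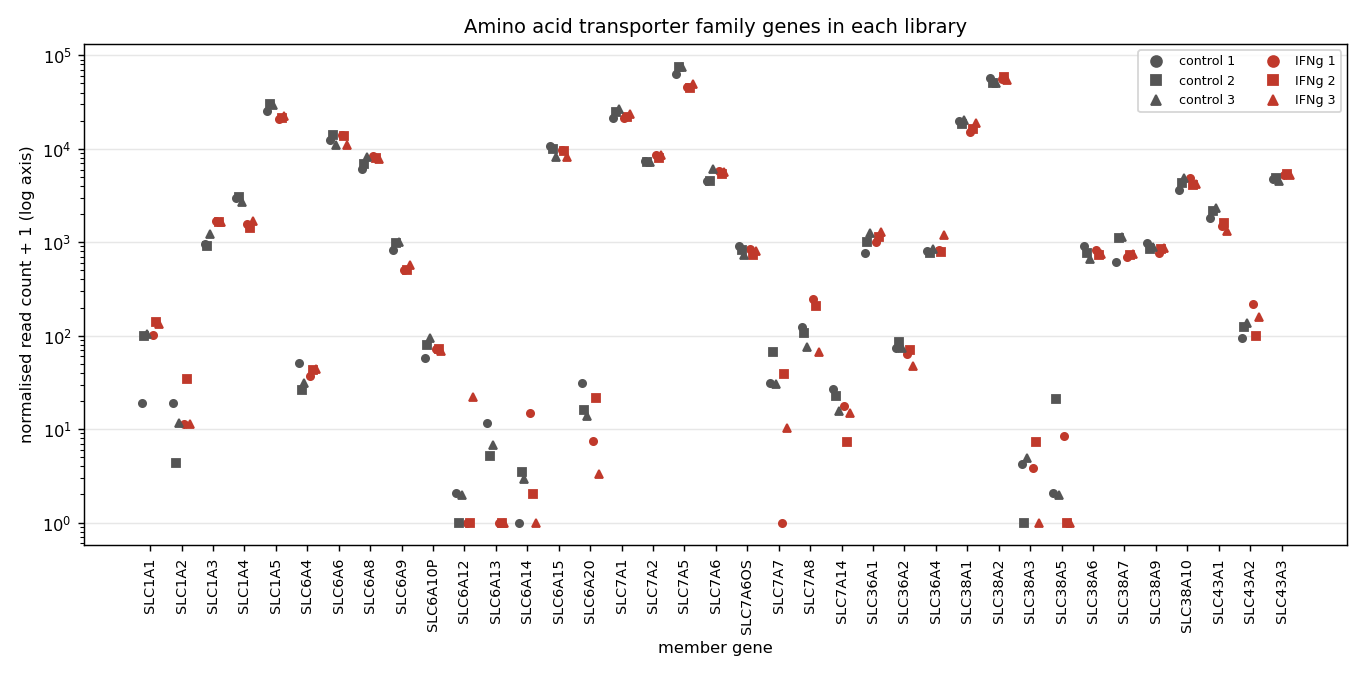
Normalised read count plus 1 on a log axis for the 37 members (x axis), with control libraries in grey and IFNg libraries in red and a marker shape for each replicate number. SLC7A5 and SLC38A2 are highest in every library, and 13 members have a mean under 100. All IFNg points lie below all control points for 7 members (18.9%, against 9.28% of all genes). SLC6A13, which met the rule only through the controls, is among these 7.

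SLC1A4 exchanges alanine, serine, cysteine and threonine across the plasma membrane. Its normalised read count was 2939, 3017 and 2676 in control 1, 2 and 3 and 1562, 1412 and 1668 in IFNg 1, 2 and 3. Every IFNg library lay far below every control library. IFNg minus control came to -0.90 ± 0.12 on the log2 scale (SE; limma adjusted p = 0.000694), the smallest adjusted p among the members, with 9105 reads in control and 4488 in IFNg. Leaving out any 1 library kept the call, at adjusted p between 0.00049 and 0.00807.

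SLC1A5, its closest relative, carries glutamine as well, and its control level was 8494 normalised reads per kilobase of exon against 613 for SLC1A4. Its count was 25369, 30035 and 29504 in the controls and 20857, 21304 and 22303 in IFNg. The groups did not overlap, and control 1 was the lowest control. The log2 difference of -0.39 ± 0.09 passed (limma adjusted p = 0.0294). It no longer passed when control 2 (adjusted p = 0.18), IFNg 1 (0.156), IFNg 2 (0.144) or IFNg 3 (0.0567) was left out, or when the variance was fitted without a trend (0.205).

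SLC7A5 carries leucine, phenylalanine, tryptophan and other large neutral amino acids in exchange for intracellular ones, as the light chain of a pair with SLC3A2. Its count was 63618, 74352 and 75471 in the controls and 46005, 44308 and 49718 in IFNg. Again every IFNg library lay below the lowest control, which was control 1. On the log2 scale the difference was -0.61 ± 0.10 (limma adjusted p = 0.00253). It passed whichever library was left out (adjusted p up to 0.0309) but not when the variance was fitted without a trend (0.0845). The pseudogenes SLC7A5P1 (80.0 ± 21.1 and 53.5 ± 9.58) and SLC7A5P2 (942 ± 90.7 and 842 ± 106) are no members, neither passed limma's threshold (adjusted p = 0.621 and 0.723), and how reads shared with SLC7A5 were counted is not given in the sources used here.

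SLC6A9 takes up glycine together with sodium and chloride. Its count was 817, 971 and 1005 in the controls and 505, 499 and 575 in IFNg, with no overlap. The log2 difference was -0.82 ± 0.18 (limma adjusted p = 0.0195; edgeR adjusted p = 0.0103). It lost its call without control 2 (0.112), IFNg 1 (0.0893) or IFNg 2 (0.0829).

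SLC1A3 was the only member called higher. It takes up glutamate and aspartate against their gradients and is best known from astrocytes. Its count was 964, 900 and 1216 in the controls and 1669, 1632 and 1648 in IFNg. The IFNg libraries lay close together and above all controls, of which control 3 was the highest. The log2 difference was 0.70 ± 0.15 (limma adjusted p = 0.0203). Without any single library except control 3 the call was lost, with adjusted p of 0.0644 (without IFNg 3), 0.0774 (control 1), 0.0818 (IFNg 2), 0.0992 (IFNg 1) and 0.113 (control 2), and so it was when the variance was fitted without a trend (0.103). Without control 3 the adjusted p was 0.00299.

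**Figure D2:**
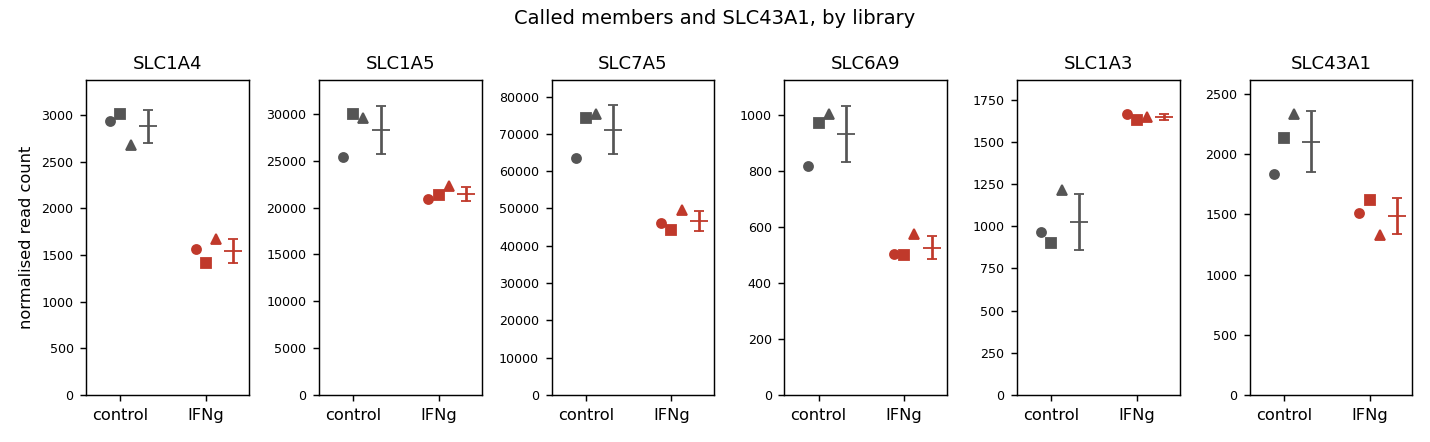
Normalised read count (y axes, linear from 0) in control (grey) and IFNg (red) for the 5 called members and SLC43A1; circles, squares and triangles are replicates 1, 2 and 3, and the bars beside them show the mean and SD of 3 libraries. SLC1A4, SLC1A5, SLC7A5, SLC6A9 and SLC43A1 lie lower, and SLC1A3 higher, in all 3 IFNg libraries than in all 3 controls.

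Promoter windows of the called members show how their start regions differ. RefSeq windows of build GRCh38.p14, 250 bases before to 50 after an annotated start, were matched by symbol to 29 of 37 members, some with several starts, giving 48 windows. The windows were searched on both strands for TGATGNAA, the core of the C/EBP-ATF element (CARE) to which ATF4 binds, for TTCNNNGAA, the letters of a gamma-activated site (GAS), and for GAAANNGAA, a core of the interferon-stimulated response element (ISRE). The searched letters can overlap one another. The CARE letters were in 5 of 48 member windows and in 3.62% of all 35116 windows, the GAS letters in 2 of 48 and 7.66%, and the ISRE letters in 2 of 48 and 8.11%. The 5 windows with CARE letters belonged to SLC1A3, SLC1A4, SLC1A5, SLC38A1 and SLC7A1. The 2 with GAS letters belonged to SLC1A3 and SLC38A1, and the 2 with ISRE letters to SLC36A1 and SLC7A7.

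Shown here are 250 bases of 4 windows, from 240 before to 10 after the start. The genes were chosen because SLC1A4, SLC1A5 and SLC7A5 fell and SLC1A3 rose. SLC6A9, which also fell, is not shown. For SLC1A4, SLC1A5 and SLC1A3 only the window with a match was printed, so the matches in these stretches follow from that choice. Capitals mark the matched letters, which for SLC1A4 are the reverse complement of the CARE core.
SLC1A4, chr2:64989159-64989408, plus strand: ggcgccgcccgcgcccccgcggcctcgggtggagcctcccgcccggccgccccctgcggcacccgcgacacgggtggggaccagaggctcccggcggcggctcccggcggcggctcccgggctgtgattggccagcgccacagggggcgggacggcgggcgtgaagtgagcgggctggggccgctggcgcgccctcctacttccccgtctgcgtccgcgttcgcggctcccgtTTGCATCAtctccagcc
SLC1A5, chr19:46784805-46785054, minus strand: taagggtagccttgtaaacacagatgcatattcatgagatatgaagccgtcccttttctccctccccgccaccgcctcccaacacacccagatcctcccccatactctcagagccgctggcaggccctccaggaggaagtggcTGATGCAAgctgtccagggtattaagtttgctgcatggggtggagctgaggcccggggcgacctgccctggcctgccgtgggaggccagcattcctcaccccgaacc
SLC7A5, chr16:87869498-87869747, minus strand: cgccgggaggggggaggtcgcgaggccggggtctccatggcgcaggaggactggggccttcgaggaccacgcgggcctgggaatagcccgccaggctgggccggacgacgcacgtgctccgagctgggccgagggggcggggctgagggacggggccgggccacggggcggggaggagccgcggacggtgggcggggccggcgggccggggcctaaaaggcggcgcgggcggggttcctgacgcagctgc
SLC1A3, chr5:36596348-36596597, plus strand: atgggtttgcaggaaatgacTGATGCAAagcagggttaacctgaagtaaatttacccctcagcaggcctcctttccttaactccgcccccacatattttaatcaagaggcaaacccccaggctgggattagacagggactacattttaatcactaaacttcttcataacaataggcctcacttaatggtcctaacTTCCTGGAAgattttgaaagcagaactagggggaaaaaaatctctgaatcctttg

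In SLC1A4 the match began 7 bases before 1 of 2 listed starts, in SLC1A5 97 bases before 1 of 3, and in SLC1A3 220 bases before 1 of 3, in a window that also held TTCCTGGAA beginning 45 bases before the start. The CARE letters TGATGCAA thus stood in windows of a member that rose and of members that fell, and the SLC7A5 window held none of the 3 motifs. The printed SLC7A5 and SLC1A4 stretches were each 79.6% G and C, against 60.4% for SLC1A5 and 42.8% for SLC1A3. Whole windows without a match, not printed, held 52% for SLC1A4, 66.7% in each for SLC1A5, and 50% and 46.7% for SLC1A3. SLC6A9 and SLC43A1 windows had no match either. A match describes letters only and shows no binding, and a missing match covers these windows only, as no other part of a gene was searched.

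The other SLC1 members were read at low levels. SLC1A1, a glutamate carrier that also takes up cysteine, was 18.2, 99.4 and 102 in control and 99.4, 141 and 131 in IFNg. Control 1 stood far below the other 5 libraries, and the groups overlapped. Its log2 difference of 1.08 ± 0.60 did not pass (limma adjusted p = 0.451) and was 0.28 without control 1. SLC1A2, the main glutamate carrier of astrocytes, lay between 3.34 and 33.1 in the 6 libraries.

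None of the other SLC7 light chain members passed in limma, edgeR or DESeq2, and 0 had an unadjusted p under 0.05. SLC7A6, which exchanges cationic for neutral amino acids and also pairs with SLC3A2, was 4500, 4508 and 6048 in control and 5713, 5424 and 5660 in IFNg. Control 3 lay above every IFNg library, while controls 1 and 2 lay below. The log2 difference was 0.17 ± 0.12 (limma adjusted p = 0.574), and 0.31 without both libraries numbered 3 (0.0545). SLC7A8, a relative of SLC7A5 with a wider range of neutral substrates, was 123, 107 and 74.9 in control and 247, 209 and 66.0 in IFNg. Library 3 was lowest in each group, and the difference of 0.59 ± 0.49 did not pass (adjusted p = 0.639). It was 0.24 without IFNg 1, 0.36 without IFNg 2, 0.39 without control 3 and 1.18 without IFNg 3. SLC7A7, which exports cationic amino acids in epithelia, was 30.0, 65.1 and 29.2 in control and 0, 38.2 and 9.27 in IFNg, and did not pass (adjusted p = 0.34). SLC7A6OS was 822 ± 88.4 and 794 ± 55.7 and did not pass either.

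These light chains share SLC3A2 as their heavy chain, so their make-up was computed per kilobase of union exon length (GENCODE 29), over SLC7A5, SLC7A6, SLC7A7, SLC7A8 and SLC7A11. SLC7A5 held 88.7%, 90.3% and 89.0% of the light chain reads per kilobase in control and 87.5%, 87.6% and 87.8% in IFNg. SLC7A6 held 4.53%, 3.95% and 5.15% in control and 7.85%, 7.74% and 7.21% in IFNg. The share of SLC7A6 was thus above all controls in every IFNg library, and that of SLC7A5 below. SLC7A11 had a share of 5.92% ± 0.56 in control and 4.37% ± 0.41 in IFNg, with groups that did not overlap. The exact permutation test gave p = 0.1 for each of these 3 shares, the smallest that 3 against 3 allows. These shares must sum to 100, so 1 share cannot move alone.

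**Figure D3:**
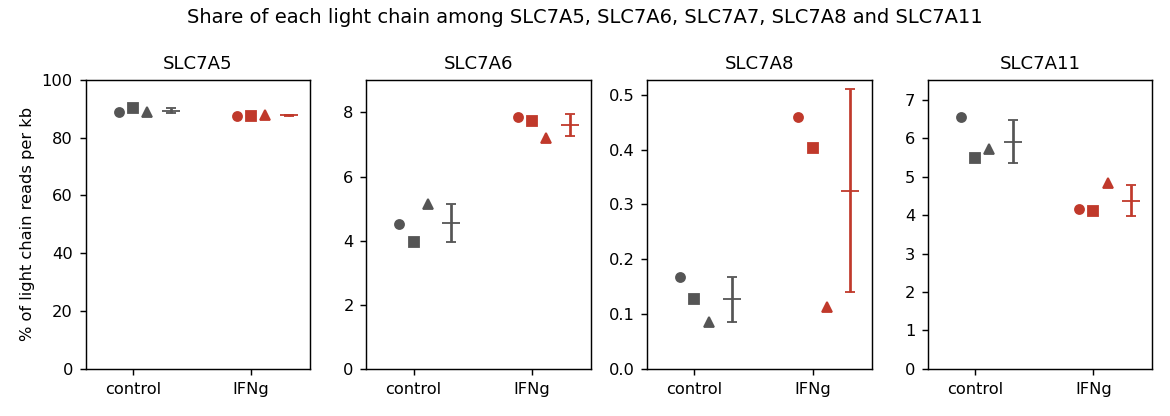
Share (%) of each light chain among reads per kilobase of 5 SLC3A2-linked light chains, by library, with control in grey and IFNg in red, replicates 1, 2 and 3 as circle, square and triangle, and mean and SD of 3 libraries beside them; SLC7A7 is left out of the picture. The share of SLC7A6 is above 7 in every IFNg library and at most 5.15 in control, and the y axes differ between panels.

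In the cationic branch no member passed limma's threshold (0 of 3, 0 at an unadjusted p under 0.05, and 0 in edgeR and DESeq2). SLC7A1, the housekeeping arginine and lysine transporter, was 21385, 24459 and 26815 in control and 21096, 21722 and 23756 in IFNg. The groups overlapped, with a log2 difference of -0.12 (95% interval -0.34 to 0.10). SLC7A2, an arginine transporter known to be inducible in macrophages, was 7489, 7295 and 7221 in control and 8518, 7917 and 8646 in IFNg. All IFNg libraries lay above all controls, but the difference of 0.19 ± 0.09 did not pass (limma adjusted p = 0.329). SLC7A14, a lysosomal relative, had 65 and 36 reads in the 2 groups.

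None of the 8 SLC38 members passed in limma or DESeq2, nor did any of the 6 that edgeR tested, and 1 had an unadjusted p under 0.05 in limma. That was SLC38A1, a sodium-coupled glutamine transporter, at 19944, 18595 and 20461 in control and 15205, 16141 and 19008 in IFNg. IFNg 3 lay above control 2, so the groups overlapped. The log2 difference of -0.23 ± 0.10 (adjusted p = 0.276) became -0.30 without both libraries numbered 3 and then passed (0.0215). SLC38A2, which is known to be induced when amino acids run short, was 57239, 50789 and 50671 in control and 55827, 58161 and 54975 in IFNg. Its log2 difference was 0.09 (95% interval -0.10 to 0.28; adjusted p = 0.694).

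SLC38A9, an arginine sensor of the lysosomal membrane upstream of mTORC1, was 969, 839 and 884 in control and 764, 849 and 870 in IFNg (log2 difference -0.12, 95% interval -0.46 to 0.23). SLC38A7, a lysosomal glutamine exporter, was 610, 1098 and 1131 in control and 694, 734 and 752 in IFNg. Control 1 lay below every IFNg library and the other controls above them, and the difference of -0.33 ± 0.23 did not pass (limma adjusted p = 0.568), nor did that of -0.62 without control 1 (0.105). SLC38A10 (4253 ± 619 and 4390 ± 387) and SLC38A6 (780 ± 132 and 760 ± 52.0) differed by less than their spread. SLC38A3 and SLC38A5 had at most 26 reads in a group.

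Of 3 SLC43 members 0 passed in limma and edgeR, 1 passed in DESeq2, and 1 had an unadjusted p under 0.05. SLC43A1, a carrier of branched-chain and aromatic amino acids, came closest to the threshold among members that missed it in limma. Its count was 1836, 2136 and 2339 in control and 1509, 1619 and 1325 in IFNg. All IFNg libraries lay below all controls. The log2 difference was -0.50 ± 0.14 (limma adjusted p = 0.0723; edgeR 0.0649), while DESeq2 called it (0.0174), and without both libraries numbered 3 it was -0.34 (limma adjusted p = 0.164). SLC43A2, with similar substrates, was 93.2, 124 and 134 in control and 218, 99.2 and 159 in IFNg and did not pass (adjusted p = 0.714). SLC43A3, described as a purine nucleobase carrier, was 4786, 4838 and 4574 in control and 5242, 5404 and 5304 in IFNg. Its groups did not overlap, and the difference of 0.17 ± 0.09 did not pass (adjusted p = 0.428).

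The SLC36 members did not pass either (0 of 3 in limma, edgeR and DESeq2, and 0 at an unadjusted p under 0.05). SLC36A1, which exports amino acids from lysosomes, was 769, 996 and 1260 in control and 1004, 1135 and 1290 in IFNg. SLC36A4, a high-affinity proline and tryptophan carrier, was 810, 763 and 852 in control and 830, 789 and 1179 in IFNg, where IFNg 3 stood above the other 5 libraries. SLC36A2 had few reads (242 and 174 in the groups), with a log2 difference of -0.37 ± 0.41 although its groups did not overlap.

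Of the SLC6 members other than SLC6A9, none passed in limma or DESeq2, nor in edgeR, which did not test SLC6A12, SLC6A13 and SLC6A14, and 1 (SLC6A13) had an unadjusted p under 0.05. SLC6A6, the taurine transporter, was 12441, 14052 and 11063 in control and 13880, 13677 and 10888 in IFNg. Library 3 was lowest in both groups, and the log2 difference was 0.03 (95% interval -0.23 to 0.29). SLC6A8, the creatine transporter, was 6032, 6841 and 8189 in control and 8309, 8030 and 7719 in IFNg. Its difference of 0.20 ± 0.11 did not pass (adjusted p = 0.451), and was 0.35 without both libraries numbered 3 (0.0275). SLC6A15, a neutral amino acid carrier known mainly from neurons, was 9635 ± 1266 and 9116 ± 808 (log2 difference -0.08, 95% interval -0.32 to 0.17). The pseudogene SLC6A10P was 75.6 ± 17.9 and 70.0 ± 2.45, and reads could have been shared with SLC6A8.

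The other SLC6 members had under 120 reads a group. SLC6A4, the serotonin transporter, had 108 and 117 reads, and SLC6A20, which carries proline, 59 and 29. SLC6A12 had 2 and 18 reads, of which all 18 were in IFNg 3, and SLC6A14 had 5 and 16. SLC6A13, a GABA carrier, had 21 reads in control and 0 in IFNg. With 3 reads over the IFNg group as the floor, and the control reads taken as exact, its level was at least 6.44-fold lower there. SLC6A13 met the rule and the filter only through the controls, where it had to be nonzero, and its limma adjusted p was 0.263. Such a floor covers counting error of the IFNg group only. The 4 symbols left out, SLC6A3, SLC6A7, SLC6A16 and SLC38A4, were nonzero in 1 or 2 libraries at values up to 12.4.

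**Figure D4:**
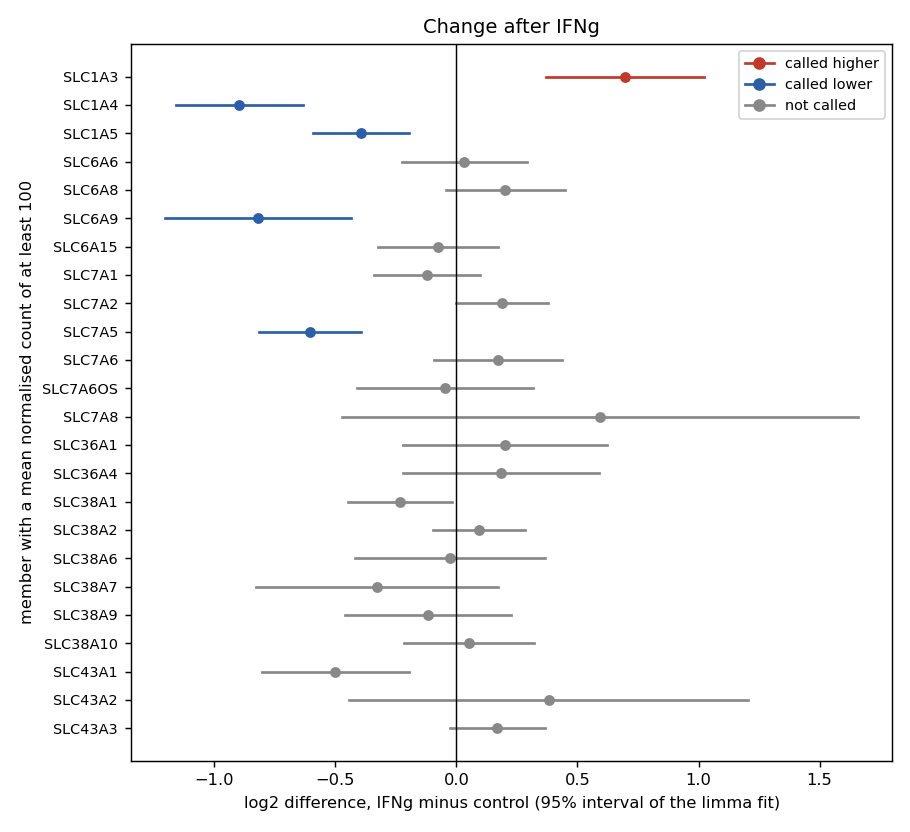
Log2 difference of IFNg minus control with its 95% interval from the limma fit (x axis) for the 24 members with a mean normalised count of at least 100 (y axis). Blue marks the 4 members called lower, red the 1 called higher and grey the 19 not called, whose differences run from -0.50 to 0.59.

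Precision differed between members. Of 24 members with a mean normalised count of at least 100, 19 were not called, and the 95% interval of 13 of these lay within a 1.5-fold change in either direction and of 17 within a 2-fold change. Among the 13 members with a mean under 100, intervals were wide, as for SLC7A7 (log2 difference -2.42, interval -4.89 to 0.05), and 0 were called in limma, in DESeq2 or among the 8 that edgeR tested, with 1 at an unadjusted p under 0.05 in limma.

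Whether related genes differed in their change was tested on 7 pairs, as the log2 ratio of the pair in each library, with a 2-sided exact permutation test that cannot go below p = 0.1 for 3 against 3. The ratio of SLC1A4 to SLC1A5 was -3.30 ± 0.18 in control and -3.80 ± 0.10 in IFNg (mean ± SD, n = 3), with no overlap between groups (exact p = 0.1, 0.14 adjusted over the 7 pairs). SLC7A5 against SLC7A6 was 3.83 ± 0.20 and 3.06 ± 0.07, also with no overlap. SLC7A5 against its heavy chain SLC3A2 was 1.69, 1.81 and 1.78 in control and 1.61 in each IFNg library. Relative to the heavy chain, the light chain was thus lower in all 3 IFNg libraries than in the 3 controls, with a mean difference of -0.15 on the log2 scale.

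SLC38A1 against SLC38A2 differed by -0.33 and SLC43A1 against SLC43A2 by -0.88, both with no overlap and an exact p of 0.1. The gap between groups was narrow for SLC38A1 against SLC38A2 (-1.53 in IFNg 3 and -1.52 in control 1). It was also narrow for SLC43A1 against SLC43A2 (4.015 in IFNg 2 and 4.100 in control 2). The latter ratio was 2.783 in IFNg 1. Its difference was -0.63 without IFNg 1 and -1.25 without IFNg 2. In all, 5 of 7 ratios reached the smallest p possible, and none could pass 0.05. SLC7A5 stands in the pairs with SLC7A6 and with SLC3A2, so these ratios are not separate results. The pairs were chosen with earlier results of these data known, so the count is not independent evidence. How often other gene pairs separate the groups was not computed. The ratios of SLC1A3 to SLC1A1 (exact p = 0.9) and of SLC36A1 to SLC36A4 (exact p = 1) overlapped between groups. The first of these was 5.65 in control 1 and 3.17 and 3.56 in the other controls, and its difference of -0.38 turned to 0.38 without control 1.

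**Figure D5:**
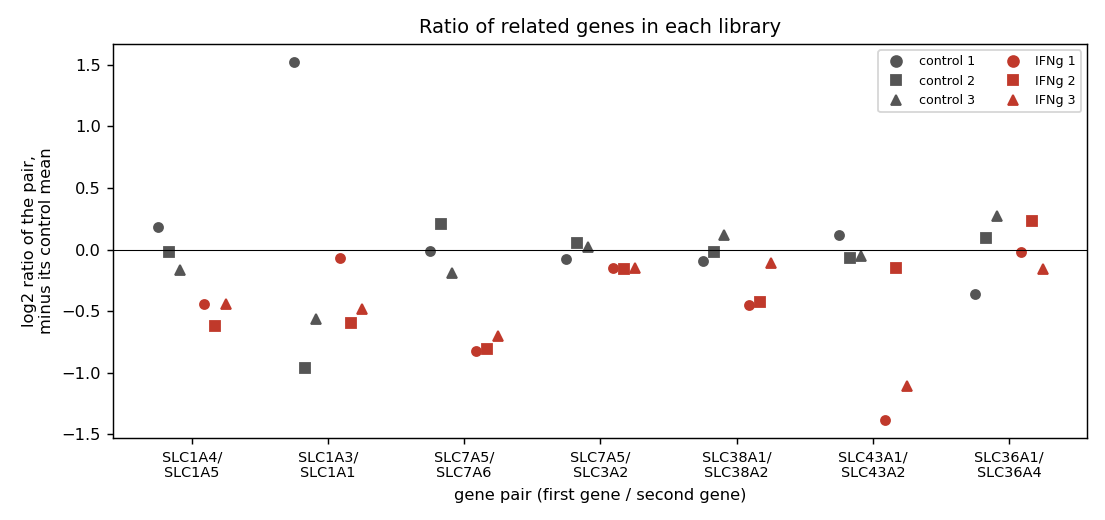
Log2 ratio of 7 gene pairs in each library, drawn as the distance from the control mean of that pair (y axis), with control in grey and IFNg in red and a marker shape for each replicate number. For 5 pairs all IFNg points lie below all control points, and the SLC1A3/SLC1A1 ratio is spread widely by control 1.

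Levels of different members can be set side by side only per length. In control, normalised reads per kilobase of union exon length were highest for SLC7A5 (15511 ± 1427), then SLC38A2 (10567 ± 751), SLC1A5 (8494 ± 767), SLC7A1 (3297 ± 371) and SLC38A1 (2109 ± 103). SLC6A6 (1814 ± 217) and SLC6A8 (1802 ± 280) came next and did not differ beyond their spread. In IFNg SLC38A2 (11251 ± 330) lay above SLC7A5 (10176 ± 603) in every library, the reverse of the order in every control library, a comparison chosen after the values were seen. SLC1A3 moved from rank 17 to 14 among the 37 members, SLC1A4 from 14 to 16 and SLC6A9 from 18 to 22.

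The members together held 0.354%, 0.377% and 0.391% of all assigned reads in control and 0.326%, 0.325% and 0.336% in IFNg. Their summed normalised read count was 259541 ± 9135 in control and 228170 ± 3155 in IFNg, with no overlap (exact permutation p = 0.1). SLC7A5 alone held 27.4% ± 1.60 of this sum in control and 20.5% ± 0.95 in IFNg. Without SLC7A5 the sum was 188394 ± 2712 and 181493 ± 1219, again with no overlap. This sum still holds the other called members, SLC1A5 the largest of them, so it does not show a fall of the uncalled members.

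Other genes of amino acid transport and sensing were counted in lists, to be read against the 3.27% higher and 1.05% lower of all genes in limma and the 5.67% and 3.85% without both libraries numbered 3. Of 4 kept partners of transporters, 1 was lower, the heavy chain gene SLC3A2 (20953 ± 1081 and 15324 ± 908; log2 difference -0.45 ± 0.09), and SLC7A11 itself, the gene set apart above, differed by -1.01 ± 0.11 (limma adjusted p = 0.00968 and 0.000127). Without both libraries numbered 3, ARL6IP1 was lower as well (adjusted p = 0.00698, against 0.488 with all 6). Of 21 amino acid and peptide carriers of other families, 3 were higher and 0 lower in limma, edgeR and DESeq2, and 7 had an unadjusted p under 0.05 in limma, where 15.3% of all genes did. edgeR tested 20 of the 21. Those higher were the lysosomal peptide and histidine carrier SLC15A3 (12.9 ± 3.47 to 520 ± 42.7; adjusted p = 3.75e-06), the mitochondrial glutamate carrier SLC25A22 (3442 ± 536 to 6995 ± 98.8; 0.000192) and MFSD12, which carries cysteine into lysosomes (3489 ± 736 to 5464 ± 60.1; 0.0141). SFXN1, a mitochondrial serine carrier, was also higher without both libraries numbered 3 (0.0358, against 0.142 with all 6).

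Of 32 genes that signal amino acid supply from lysosomes to mTORC1, 0 were called in limma, in DESeq2 or among the 31 that edgeR tested, and 1 had an unadjusted p under 0.05 in limma. Without both libraries numbered 3, RRAGA, a Rag GTPase, was higher (adjusted p = 0.00832, against 0.144 with all 6) and FNIP1, a partner of folliculin, lower (0.0338, against 0.407).

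Of 17 factors and targets of the amino acid response, 6 were lower and 1 higher in limma, with a median log2 difference of -0.39, and 7 were lower and 1 higher in edgeR and in DESeq2. Without both libraries numbered 3 the counts were 8 lower and 1 higher, adding DDIT3, a stress-induced C/EBP factor (adjusted p = 0.000784, against 0.053 with all 6), and ASNS, asparagine synthetase (0.015, against 0.792). The lowest adjusted p of those that fell were 0.00343 for JDP2, which represses AP-1 sites (log2 difference -1.10), 0.00491 for TRIB3, a pseudokinase induced by ATF4 (-0.62), and 0.0269 for CHAC1, which degrades glutathione (-0.89). ATF4 itself, named after its value was seen, fell by 0.39 ± 0.10 on the log2 scale (0.0481), and ATF3, a stress factor, rose by 1.52 ± 0.21 (0.000955). Lower levels of ATF4 pathway transcripts in these libraries were known before this list was chosen, so the count is not independent evidence.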

How the data were processed

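Total RNA of 6 HT-1080 libraries was depleted of ribosomal RNA and sequenced from stranded libraries as paired reads, per the labels' protocols. Named in the submitters' processing notes are TopHat2 2.0.13, Cuffdiff 2.2.1, Cufflinks and FastQC 0.11.3, and hg19 or GRCh37 as builds, without roles. No source used here gives the read counter, its use of strand or how it treated shared reads. The deposited signal, named RPKM by the authors, held in each library 100% whole multiples of 1 step (tolerance 0.001 reads). These values are therefore whole reads over a size factor, which matched recomputed median-of-ratios factors, and are not divided by length.

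The filter kept 15546 genes at 0.5 or more in 3 of 6 libraries and removed 1641. log2(value + 1) was fitted with limma 3.58.1 (R 4.3.3), with a variance trend and no covariate, 2-sided, and p-values were adjusted by Benjamini-Hochberg over all kept genes (threshold 0.05). On this scale differences of low genes can be smaller or larger than in DESeq2. For SLC6A13 the log2 difference was -2.90, and -5.18 in DESeq2. For SLC7A7 it was -2.42, and -1.39 in DESeq2. edgeR 4.0.16 (quasi-likelihood) and DESeq2 1.42.0 on recovered reads were alternatives, as were other pseudocounts and filters, TMM factors, no variance trend, the replicate block and left-out libraries. The scripts were tested on simulated data, with an outcome not given here. The simulated libraries were drawn independently, so they held no deviation shared between libraries. No 2 libraries of a group agreed within sampling noise (the lowest chi-square over its degrees of freedom was 15.8). Exon lengths came from GENCODE 29 on GRCh38, another build than the submitters', and served only for values per kilobase.

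Named were the members called by limma or edgeR and a list of members of each role. Other members named, the summed counts and the shares were chosen after seeing the data. Members, lists and pairs were chosen with earlier results of these data known.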

Additional observations from a re-analysis of the deposited data

How the results depend on the processing

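Across other pseudocounts, filters, TMM factors and edgeR, 4 members were lower and 1 higher, and these were the same genes. Fitting the variance without a trend gave 0 higher and 3 lower (SLC1A4, SLC6A9 and SLC6A13), with 279 and 41 of all genes against 509 and 163. SLC6A13 passed the filter only through the controls. DESeq2 called 704 of all genes higher and 332 lower. Leaving out libraries, singly or both numbered 3, gave 0 to 2 members higher and 2 to 5 lower, with 330 to 882 of all genes higher and 37 to 599 lower. The sign of 10 members, 0 of them called, turned when some single library was left out (SLC6A6, SLC6A10P, SLC6A12, SLC6A14, SLC6A15, SLC7A6OS, SLC38A3, SLC38A5, SLC38A6 and SLC38A10), as did that of 2 ratios, with ranges among others of -0.0538 to 0.145 for SLC6A6, -0.185 to 0.0031 for SLC6A15, -0.862 to 0.38 for the ratio of SLC1A3 to SLC1A1 and -0.164 to 0.155 for that of SLC36A1 to SLC36A4. The cause was not tested.

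Whether replicate numbers pair the samples is not settled. Deviations of same-numbered libraries correlated at 0.0437, 0.0209 and 0.111, and control 2 and IFNg 2 did not correlate best with their own number. Libraries numbered 3 correlated at 0.111 with each other and at -0.0678 to -0.0395 with libraries numbered 1 or 2 of the other group. What the libraries numbered 3 share was not tested. With the replicate block, 1 member was higher and 5 lower, adding SLC43A1 (adjusted p = 0.0156), and 915 and 549 of all genes were called.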
